A study of Populus ussuriensis with 8 samples.

Results

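A set of 249 poplar genes stood at least 4 times higher 1 h after cutting than 0.5 h after cutting, at the base of stem cuttings of Populus ussuriensis. A gene entered the set when its mean log2(FPKM + 1) over the 4 libraries of 1 h exceeded that over the 4 libraries of 0.5 h by at least 2, and each 1 h library lay above every 0.5 h library. FPKM counts sequenced fragments relative to transcript length and to the number mapped, which alone does not make libraries fully comparable. The all-gene median of log2(FPKM + 1) was 3.19 to 3.23 in the 0.5 h libraries and 3.00 to 3.06 in the 1 h libraries. The values were not rescaled, and the size of the set depends on this choice. With library medians centred the rule gave 327 genes, including all 249, and with quantiles equalized it gave 280, including 247. The set was drawn from the 24347 genes that reached 1 FPKM in 2 or more libraries, out of 36385 genes listed, and makes up 1.02% of the 24347. The genes were chosen by these levels at the 2 times, so the levels are described below without a test.

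RNA came from the basal 0.5 cm of stem cuttings in 4 groups of 2 libraries. Cuttings on half-strength Murashige and Skoog medium with 1 µM methyl jasmonate (MeJA) were harvested at 1 h or 0.5 h, and untreated cuttings on the same medium without MeJA at 1 h or 0.5 h. The growth text puts the source plants at 4 weeks and the treatment text at 2 weeks, and neither names a clone or the number of cuttings per library. No label says that the replicates came from separate cultures, so a p-value here sets a difference against the spread of these libraries alone, and that spread may be technical.

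As background, cutting a stem wounds it, and calcium, reactive oxygen and electrical signals then switch on genes for transcription factors, kinases and hormone enzymes ahead of slower defence and growth genes. Jasmonate accumulates after wounding. Its isoleucine conjugate brings JAZ repressors to the COI1 receptor for degradation and so frees MYC-type transcription factors, and MeJA applied from outside feeds into the same pathway. In poplar the base of a cutting later forms adventitious roots. The files carry Potri identifiers, the naming style of Populus trichocarpa gene models, which give a chromosome and an order along it. The files do not pair these identifiers with gene names, so no gene is given a function here, and the labelled tissue was not checked against marker genes.

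At 1 h the 249 genes held 2.99% and 2.88% of the summed FPKM listed in the MeJA libraries and 2.83% and 3.37% in the untreated libraries. At 0.5 h they held 0.535% and 0.554% with MeJA and 0.454% and 0.490% without. The 4 libraries of 1 h therefore all lay far above the 4 of 0.5 h, and the highest single share was that of untreated 1 h replicate 2. The median gene of the set stood at 31.7 and 24.3 FPKM in the MeJA 1 h libraries and at 24.7 and 30.3 FPKM in the untreated 1 h libraries. At 0.5 h the median was 3.45 and 3.77 FPKM with MeJA and 2.94 and 3.25 FPKM without. In bulk tissue, more cells that make a transcript and more RNA per cell cannot be told apart. No library taken before cutting was analysed, and any batch that coincides with the time cannot be told apart from it.

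**Figure D1:**
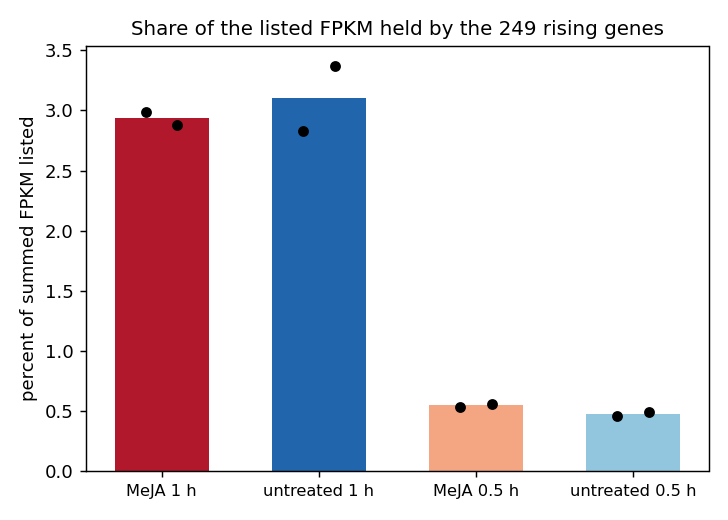
Percent of the summed FPKM listed (vertical axis) held by the 249 genes in each group; bars are group means of 2 libraries and dots the libraries. The 1 h libraries lie between 2.83% and 3.37% and the 0.5 h libraries between 0.454% and 0.554%.

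The genes differed widely in level. Their mean over the 4 libraries ran from 3.75 to 1080 FPKM at 1 h, with a median of 26.5 FPKM, and from 0.047 to 259 FPKM at 0.5 h, with a median of 3.43 FPKM. The ratio of the 2 means ran from 4.17 to 213 with a median of 7.16. The top ratio was that of Potri.007G111800 and rested on MeJA 1 h replicate 1, without which it was 33.4 and the ratios of the set ran from 3.87 to 96.6 with a median of 7.11. The median difference between 1 h and 0.5 h was 2.33 on the log2(FPKM + 1) scale, where low values are compressed, against -0.17 over all genes tested. It was under 2.5 for 147 genes, at least 3 for 50 genes and at least 4 for 10 genes. In 149 genes the lowest 1 h library was at least 4 times the highest 0.5 h library.

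Classes of starting level were set apart. In 96 genes the 0.5 h mean was 5 FPKM or more, and their median was 92.9 FPKM at 1 h and 14.98 FPKM at 0.5 h. In 112 genes the 0.5 h mean was under 5 FPKM with at least 1 library at 1 FPKM or more, with medians of 18.8 FPKM at 1 h and 2.25 FPKM at 0.5 h. The other 41 genes were under 1 FPKM in every 0.5 h library and had medians of 7.38 FPKM at 1 h and 0.296 FPKM at 0.5 h. The ratio of the means was highest in this last class, with a median of 36.1, against 5.18 in the first. The rule adds 1 FPKM before taking logs and so asks a larger ratio of genes that start low. This order of the classes is therefore partly set by the rule. Without the 1 h libraries, 202 of the 249 genes reach 1 FPKM in at least 2 libraries, so 47 entered through their 1 h values. No gene of the set was listed at 0 in every 0.5 h library, and 13 were listed at 0 in at least 1 of them.

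**Figure D2:**
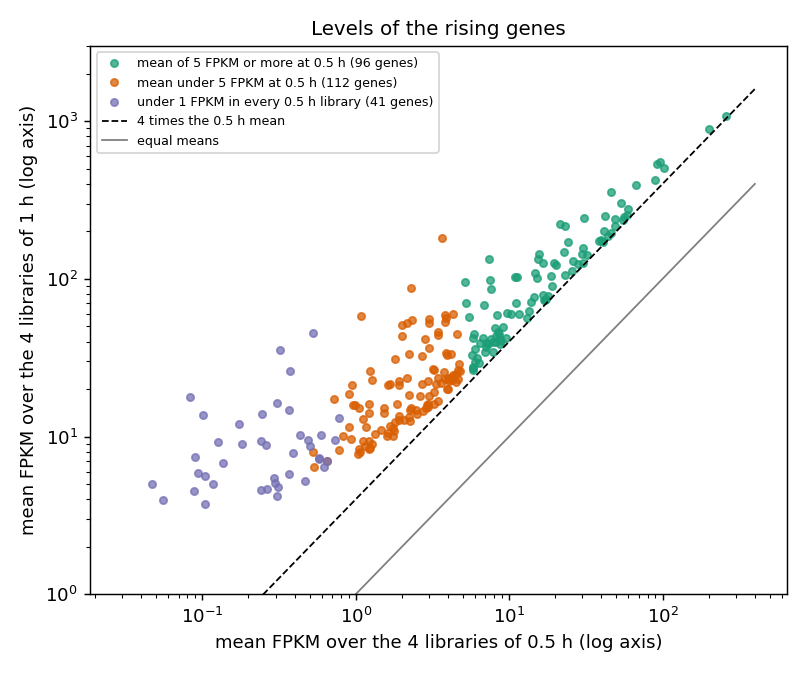
Mean FPKM of each of the 249 genes over the 4 libraries of 1 h (vertical log axis) against that over the 4 libraries of 0.5 h (horizontal log axis), coloured by class of 0.5 h level. Every point lies above the dashed line of a ratio of 4, and the 41 genes under 1 FPKM in every 0.5 h library have a median ratio of 36.1. With 1 FPKM added before taking logs, the rule asks a larger ratio of genes that start low.

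Potri.008G086700, on chromosome 8, had the largest difference of the set. It stood at 182 and 156 FPKM in MeJA 1 h libraries and 158 and 232 FPKM in untreated 1 h libraries, and at 4.19 and 3.19 FPKM with MeJA and 3.50 and 3.77 FPKM without at 0.5 h. All 1 h libraries were high and treatments overlapped at both times. Its mean was 182 ± 35 FPKM at 1 h and 3.66 ± 0.42 FPKM at 0.5 h (SD, n = 4), a ratio of 49.7.

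Potri.011G089700, on chromosome 11, came second. Its values at 1 h were 48.3 and 37.7 FPKM with MeJA and 36.6 and 59.0 FPKM without, and at 0.5 h they were 0.655 and 0.690 FPKM with MeJA and 0.513 and 0.248 FPKM without. The treatments overlapped at 1 h, while at 0.5 h both MeJA libraries lay above both untreated ones. The gene averaged 45.4 ± 10.5 FPKM at 1 h and 0.526 ± 0.20 FPKM at 0.5 h (SD, n = 4).

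Potri.011G089700 is 1 of 7 genes that were under 1 FPKM in every 0.5 h library and at 10 FPKM or more in every 1 h library. Another of the 7, singled out after its values were seen for its small spread, is Potri.012G079100 on chromosome 12. It stood at 24.6 and 24.3 FPKM with MeJA and 25.9 and 28.6 FPKM without at 1 h. At 0.5 h it was at 0.264 and 0.363 FPKM with MeJA and 0.491 and 0.364 FPKM without. All 4 values at each time lay close together.

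In MeJA cuttings the second largest change over time was that of Potri.006G101100, on chromosome 6. It stood at 69.0 and 56.9 FPKM with MeJA and 40.2 and 66.0 FPKM without at 1 h, and the treatments overlapped. At 0.5 h it had 1.15 and 1.21 FPKM with MeJA and 0.946 and 1.00 FPKM without. The next identifier, Potri.006G101200, named after its values were seen, was in the set too. It averaged 134 ± 21.7 FPKM at 1 h and 7.36 ± 2.22 FPKM at 0.5 h (SD, n = 4), where both MeJA libraries were at 9.27 FPKM, against 5.15 and 5.76 FPKM in untreated libraries.

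At the other end of the scale was the gene with the highest level, Potri.002G249200 on chromosome 2, also named after its values were seen. It stood at 956 and 1027 FPKM with MeJA and 1071 and 1268 FPKM without at 1 h, and at 293 and 274 FPKM with MeJA and 228 and 242 FPKM without at 0.5 h. Its untreated libraries were the higher ones at 1 h and the lower ones at 0.5 h. Between 3 and 6 genes of the set were among the 100 most abundant genes of each 1 h library, and 0 were in each 0.5 h library. Among the 1000 most abundant, the set had 44 to 51 genes in the 1 h libraries and 3 to 6 in the 0.5 h libraries.

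**Figure D3:**
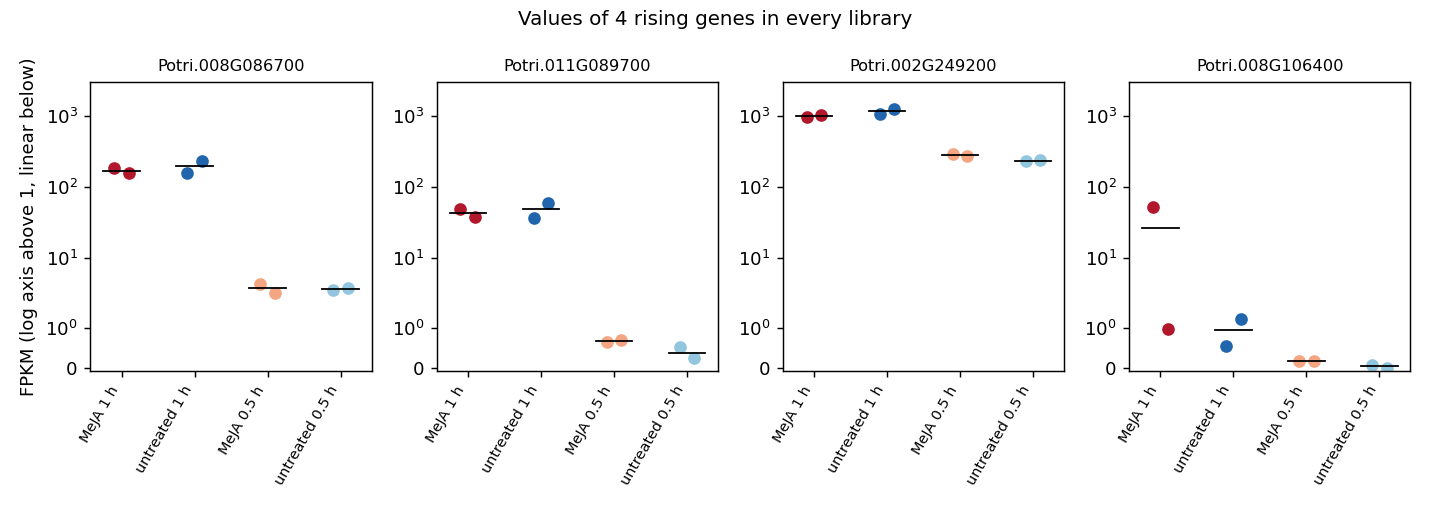
FPKM in every library (vertical axis, logarithmic above 1 and linear below) for 4 genes of the set; dots are libraries and lines the means of 2. Potri.008G086700, Potri.011G089700 and Potri.002G249200 were high in all 4 libraries of 1 h, while Potri.008G106400 was at 51.6 FPKM in MeJA 1 h replicate 1 and at 0.556 to 1.35 FPKM in the other 1 h libraries.

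At the threshold, the 3 genes just inside had log2 differences of 2.002 to 2.006. They are Potri.001G391200, Potri.001G275500 and Potri.008G106400. The 3 just outside had differences of 1.994 to 1.998 and are Potri.012G096800, Potri.012G019900 and Potri.001G270500. Of the genes that reached a difference of 2, 0 failed the condition that the times must not overlap. In limma's fit over both treatments, 247 of the 249 passed an adjusted p of 0.05, beside 19.3% of all genes tested called higher at 1 h and 40.9% lower. The limma model moderates each gene's variance by that of the others, and p-values were adjusted over all genes. A fit of the 4 group means over all 8 libraries, with a shared spread, gave the same contrast within each treatment. There 246 passed in MeJA cuttings, beside 15.2% of all genes higher and 28.1% lower. In untreated cuttings 243 passed, beside 15.4% higher and 33.2% lower. The rule used this contrast, so the counts describe the set only. The 2 that missed were Potri.008G106400 (limma adjusted p = 0.17) and Potri.007G111800 (limma adjusted p = 0.0748).

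Both of these genes were far higher in a single library than in any other. Potri.007G111800, on chromosome 7, stood at 62.7 and 1.43 FPKM in MeJA 1 h replicates 1 and 2 and at 1.59 and 5.33 FPKM in untreated 1 h libraries. Its 0.5 h values were 0.171 and 0.0825 FPKM with MeJA and 0.0797 and 0 FPKM without. Potri.008G106400, on chromosome 8, stood at 51.6 and 0.972 FPKM with MeJA, and 0.556 and 1.35 FPKM without at 1 h. At 0.5 h it was at 0.160 and 0.170 FPKM with MeJA, and 0.0754 and 0 FPKM without. In each case 1 MeJA library was many times higher than the other 1 h libraries.

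They belong to 14 genes of the set that MeJA 1 h replicate 1 held more than 1 log2(FPKM + 1) unit above every other 1 h library. No gene of the set (0) stood out in this way in the other 3 libraries of 1 h, and over all tested genes 86 stood out in MeJA 1 h replicate 1, 16 in MeJA 1 h replicate 2, 2 in untreated 1 h replicate 1 and 0 in untreated 1 h replicate 2. Of the 14, 6 would still be in the set without that library. Leaving it out removed 22 of the 249 genes and added 11 others. Why that library differs was not tested.

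Genes were also chosen in one treatment and measured in the other, so the libraries measured were not those of the choice. The lists chosen this way differ from the set, whose rule used the libraries of both treatments. The rule applied to the 4 untreated libraries alone chose 277 genes, 229 of them in the set. The filter on low values still ran over all 8 libraries. In a limma fit of the 4 MeJA libraries alone, 273 of the 277 (98.6%) rose between 0.5 h and 1 h at an adjusted p of 0.05, beside 15% of all genes tested, and 0 fell. All 277 had both MeJA 1 h libraries above both MeJA 0.5 h libraries, a count given here without the share over all genes. A change of at least 2 on the log2 scale was met again by 182 of them (65.7%), beside 0.978% of all genes. Their median log2 change was 2.17 in MeJA cuttings, where it was measured, and 2.46 in untreated cuttings, where it had served for the choice. Without MeJA 1 h replicate 1, 273 again passed, beside 9.94% of all genes, and 159 met the change of 2.

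The reverse choice gave 236 genes from the MeJA libraries, 202 of them in the set. In the 4 untreated libraries, 232 of the 236 (98.3%) rose at a limma adjusted p of 0.05, beside 14.5% of all genes tested. Of the 236, 182 (77.1%) changed by at least 2, beside 1.14% of all genes. The 182 genes are those chosen in both treatments. Over the 236 genes the median log2 change was 2.36 in MeJA cuttings, where it had served for the choice, and 2.49 in untreated cuttings. The lowest change measured was 0.91 for the first choice and 0.19 for the second, so not every gene with a large change in 1 treatment had one in the other.

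No MeJA difference in the set passed an adjusted p of 0.05, although at 0.5 h most of the genes stood slightly higher with MeJA. At 0.5 h, 0 of 249 genes passed in limma, and 0% of all genes tested did. The smallest adjusted p in the set was 0.219. At an unadjusted p under 0.05, 41 genes of the set (16.5%) were higher with MeJA and 0 were lower, beside 3.46% of all genes higher and 4.34% lower. The log2 difference was above 0 for 188 of the 249 genes (75.5%), beside 42.9% of all genes. Its median was 0.17 over the set and -0.03 over all genes tested. The all-gene share depends on the scaling. With library medians centred, 192 genes of the set were above 0, beside 50.2% of all genes, and with quantiles equalized 191, beside 48.6%. Both MeJA libraries lay above both untreated ones for 88 genes of the set (35.3%), beside 13.8% of all genes, and below both for 16 (6.43%), beside 22.6%.

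These genes share the same 4 libraries, and the difference is close to the spread between them. The median log2(FPKM + 1) of the set at 0.5 h was 2.15 and 2.25 in MeJA libraries and 1.98 and 2.09 in untreated libraries. The MeJA libraries were the higher ones, but the nearest MeJA and untreated values were 2.15 and 2.09, while the untreated pair differed by 0.11. Leaving out each 0.5 h library in turn gave 157 to 193 genes with a positive difference and a median of 0.12 to 0.20, the lowest without untreated 0.5 h replicate 1. Over all genes tested, 42.9% to 45.2% had a positive difference in these refits, with a median of -0.03 to -0.02. The 95% confidence interval excluded a difference of 1 log2(FPKM + 1) unit, higher or lower, for 194 of the 249 genes (77.9%). This held for 96.4% of all genes, so the set was less tightly bounded than genes in general. That scale compresses low values, so for genes near or below 1 FPKM a 2-fold difference in FPKM is not excluded.

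The MeJA difference at 0.5 h was also taken by class of level. The median log2 difference was 0.22 in the genes at 5 FPKM or more at 0.5 h, with 78 of 96 above 0. It was 0.18 in those with a mean under 5 FPKM, with 85 of 112 above 0. In the 41 genes under 1 FPKM it was 0.04, with 25 above 0, on a scale that compresses such low values.

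Of single genes, the largest MeJA difference at 0.5 h was that of Potri.004G211600, on chromosome 4. At 0.5 h it had 24.9 and 25.6 FPKM with MeJA and 8.06 and 17.9 FPKM without. The untreated replicates differed from each other more than the MeJA replicates did, and its log2 difference was 1.01 ± 0.29 (SE; limma adjusted p = 0.515). Without untreated 0.5 h replicate 2 it was 1.53 and passed (limma adjusted p = 0.0202), the 1 gene of the set and of all genes tested (0.00411%) to do so in that fit. There the untreated 0.5 h group is the single library at 8.06 FPKM, and its spread is taken from the remaining groups. At 1 h its values were 80.5 and 93.0 FPKM with MeJA and 89.9 and 98.4 FPKM without.

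Potri.001G268400, on chromosome 1, was next, at 4.51 and 6.49 FPKM with MeJA and 2.26 and 2.48 FPKM without at 0.5 h. Its groups did not overlap, and the log2 difference was 0.93 ± 0.19 (SE; limma adjusted p = 0.382). At 1 h it stood at 31.1 and 29.05 FPKM with MeJA and 28.2 and 42.5 FPKM without. The lowest differences were smaller in size. Potri.008G010600, on chromosome 8, was at 0.723 and 0.675 FPKM with MeJA and 1.24 and 1.33 FPKM without, and Potri.003G152300, on chromosome 3, at 2.71 and 2.17 FPKM with MeJA and 3.53 and 3.64 FPKM without. Their log2 differences were -0.43 ± 0.47 and -0.42 ± 0.26 (SE; limma adjusted p = 0.897 and 0.764).

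At 1 h, again 0 of 249 genes differed between MeJA and untreated cuttings at a limma adjusted p of 0.05, and 0% of all genes tested did. At an unadjusted p under 0.05, 8 genes of the set were higher with MeJA and 17 lower, beside 3.92% and 2.01% of all genes. The log2 difference was above 0 for 107 of the 249 genes (43%), beside 53.9% of all genes. Its median was -0.06 over the set and 0.01 over all genes. With each of the 8 libraries left out, the median ran from -0.23 to 0.11 over the set and from -0.002 to 0.03 over all genes. Both MeJA libraries lay above both untreated ones for 25 genes (10%), beside 20.3% of all genes, and below both for 46 (18.5%), beside 15.7%.

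This balance rested on single libraries. The count above 0 was 60 without untreated 1 h replicate 1, beside 56.9% of all genes. Without untreated 1 h replicate 2 it was 161, beside 49.6% of all genes. In untreated 1 h cuttings, replicate 2 exceeded replicate 1 in 222 of the 249 genes (89.2%), beside 43.3% of all genes, by a median log2 of 0.34. Replicate 2 was also the highest of the 4 libraries of 1 h for 132 genes of the set, against 10 genes for replicate 1. In MeJA 1 h cuttings, replicate 1 was the highest of the 4 for 80 genes and replicate 2 for 27. The direction of a MeJA difference at 1 h over the whole set therefore cannot be read from these libraries.

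The largest positive MeJA differences at 1 h were those of Potri.008G106400 and Potri.007G111800, which stood far higher in MeJA 1 h replicate 1 than in any other library. Their log2 differences were 2.41 ± 1.61 and 1.62 ± 1.65 (SE; limma adjusted p = 0.941 and 0.981). Without that library the difference of Potri.007G111800 was -0.74, and without MeJA 1 h replicate 2 both genes passed, at 4.78 for Potri.008G106400 and 3.98 for Potri.007G111800. In that fit, which takes the spread of the single MeJA 1 h library left from the remaining groups, 6 genes of the set passed, beside 46 (0.189%) of all genes tested. All 6 are among the 14 high in MeJA 1 h replicate 1. Among the lower ones, Potri.004G032300, on chromosome 4, stood at 9.83 and 9.07 FPKM with MeJA and 14.2 and 17.8 FPKM without. Its groups did not overlap at 1 h, and the log2 difference was -0.69 ± 0.16 (SE; limma adjusted p = 0.601). Potri.008G028000, on chromosome 8, stood at 3.39 and 3.56 FPKM with MeJA and 4.22 and 6.87 FPKM without, and its groups did not overlap either (-0.52 ± 0.21, SE; limma adjusted p = 0.8).

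**Figure D4:**
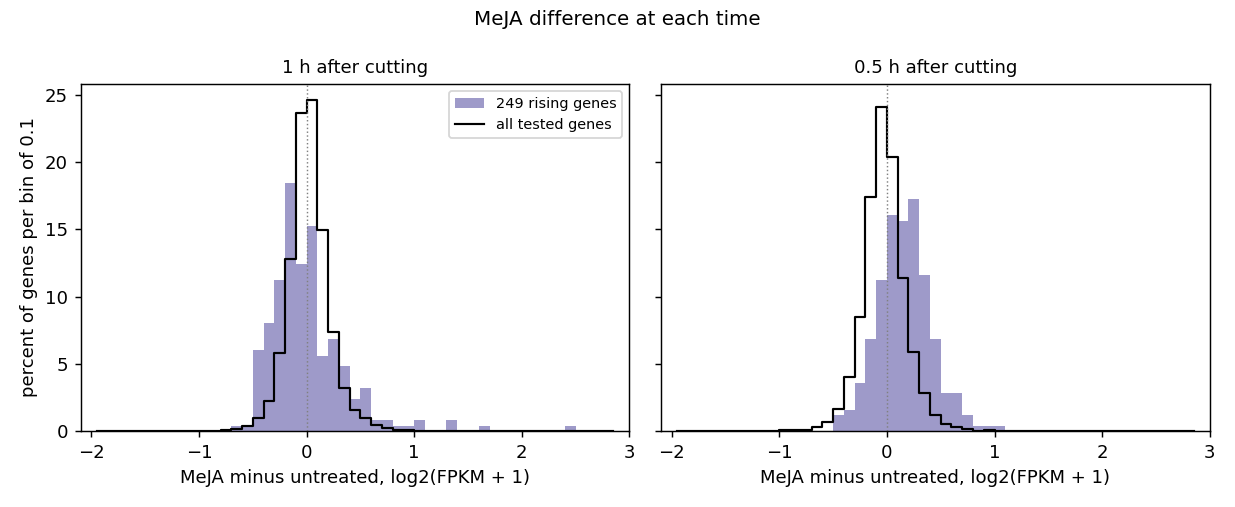
Distribution of the log2(FPKM + 1) difference, MeJA minus untreated (horizontal axis), at 1 h (left) and 0.5 h (right), as percent of genes per bin of 0.1 (vertical axis), for the 249 genes (filled) and all 24347 genes tested (line). At 0.5 h the set lies to the right of all genes, with 75.5% against 42.9% above 0, and at 1 h its median is -0.06.

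The test of whether MeJA altered the change over time also called 0 of 249 genes in limma, and 0% of all genes tested. At an unadjusted p under 0.05, the change was larger with MeJA for 1 gene of the set and smaller for 47 (18.9%), beside 5.87% and 3.45% of all genes. The interaction was below 0 for 172 of the 249 genes (69.1%), beside 42.6% of all genes, with a median of -0.18 over the set and 0.05 over all genes. The median change over time was 2.30 in MeJA cuttings and 2.51 in untreated cuttings. Without untreated 1 h replicate 2 the median interaction was -0.04, and without untreated 1 h replicate 1 it was -0.39, so its size rested on that pair. The interaction was above 0 for 77 genes with all libraries, 46 without MeJA 1 h replicate 1, 47 without untreated 1 h replicate 1 and 119 without untreated 1 h replicate 2. Over all genes tested, the shares above 0 were 57.4%, 55.7%, 58.8% and 54.3% in the same order.

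The most negative interactions were those of Potri.001G042700, on chromosome 1, and Potri.004G187400, on chromosome 4. Potri.001G042700 stood at 52.3 and 68.7 FPKM at 1 h and 9.12 and 20.6 FPKM at 0.5 h with MeJA, and at 70.5 and 88.0 FPKM and 7.25 and 7.50 FPKM without. Both untreated 1 h libraries were above both MeJA ones, and both untreated 0.5 h libraries below. Potri.004G187400 stood at 68.3 and 120 FPKM at 1 h and 15.8 and 21.8 FPKM at 0.5 h with MeJA, and at 111 and 135 FPKM and 8.39 and 13.2 FPKM without. The interactions were -1.21 ± 0.45 and -1.19 ± 0.42 (SE; limma adjusted p = 0.466 and 0.44). Without MeJA 1 h replicate 2, 1 gene of the set passed, Potri.008G106400 (limma adjusted p = 0.00223), beside 9 (0.037%) of all genes tested. The most positive interactions were 2.24 ± 2.27 for Potri.008G106400 and 1.53 ± 0.87 for Potri.017G018200 (SE; limma adjusted p = 0.845 and 0.652). Potri.017G018200, on chromosome 17, is another gene high in MeJA 1 h replicate 1, at 22.8 FPKM, against 5.35 FPKM in replicate 2 and 2.41 and 5.59 FPKM in untreated 1 h libraries.

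Over both times together, 0 of 249 genes differed between treatments in limma, as did 0% of all genes. At an unadjusted p under 0.05, 12 genes of the set were higher and 4 lower with MeJA, beside 1.83% and 1.82% of all genes. The highest differences were 1.29 ± 1.11 for Potri.008G106400 and 0.87 ± 1.08 for Potri.007G111800 (SE; limma adjusted p = 1 for both). The lowest were -0.39 ± 0.14 for Potri.007G100700, on chromosome 7, and -0.38 ± 0.15 for Potri.004G032300 (SE; limma adjusted p = 1 for both). Potri.007G100700 was at 15.6 and 21.9 FPKM with MeJA and 21.5 and 32.4 FPKM without at 1 h, and at 1.04 and 1.06 FPKM with MeJA and 1.31 and 1.71 FPKM without at 0.5 h.

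Some genes of the set lay beside each other on the chromosomes. Identifiers rise by 100 from one gene to the next, and 63 of the 249 genes (25.3%) had another gene of the set within 5 such steps. Of all genes tested, 6.4% had a gene of the set within that distance. The 63 formed 23 pairs, 4 runs of 3 and 1 run of 5. Genes outside the set but within 5 steps of it numbered 1495. Their median log2 change over time was -0.08, against -0.18 for all genes outside the set, and 26.3% of them were called higher at 1 h in limma, against 18.5%. These shares come from the contrast that chose the set and were not tested. Near-identical neighbours can share reads, which was not resolved.

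The run of 5 lay on chromosome 11, between Potri.011G025900 and Potri.011G026600, and was named after its values were seen. Potri.011G025900 stood at 118 and 86.4 FPKM with MeJA and 72.8 and 104 FPKM without at 1 h, and at 5.91 and 6.12 FPKM with MeJA and 5.10 and 3.63 FPKM without at 0.5 h. The third gene, Potri.011G026100, stood at 72.4 and 45.3 FPKM with MeJA and 35.1 and 58.2 FPKM without at 1 h, and at 2.63 and 2.03 FPKM with MeJA and 2.77 and 1.24 FPKM without at 0.5 h. In both genes all 1 h libraries were high and the treatments overlapped at 1 h.

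Between them, Potri.011G026000 averaged 26.02 ± 13.6 FPKM at 1 h and 1.24 ± 0.43 FPKM at 0.5 h (SD, n = 4). Potri.011G026200 averaged 11.5 ± 11.8 FPKM and 1.17 ± 0.76 FPKM at the same times. It was at 29.03 FPKM in MeJA 1 h replicate 1 and at 4.01 to 7.55 FPKM in the other 1 h libraries. The last gene, Potri.011G026600, was the most abundant of the run at both times, with 235 ± 35.5 FPKM at 1 h and 54.9 ± 4.67 FPKM at 0.5 h (SD, n = 4), a ratio of 4.28. Inside the run, Potri.011G026300 was not a member, with 0.803 to 1.37 FPKM at 1 h and 0.636 to 1.89 FPKM at 0.5 h, and 2 further identifiers were listed at 0 in every library.

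**Figure D5:**
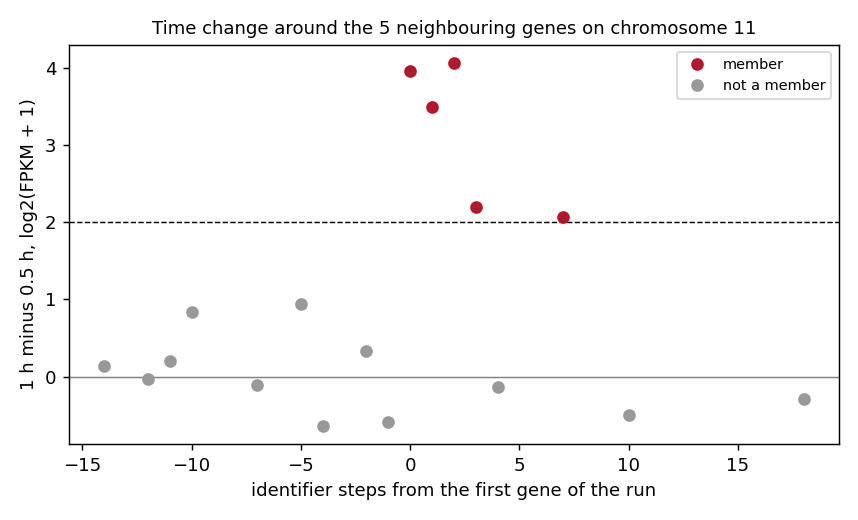
Log2(FPKM + 1) difference between 1 h and 0.5 h (vertical axis) for the tested genes around the run on chromosome 11, by identifier steps from its first gene (horizontal axis); the dashed line is the threshold of 2. The 5 genes of the set lie at 2.07 to 4.06 and the tested genes around them below 1.

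A run of 3 on chromosome 2, named after its values were seen, held the gene with the smallest p within the set for MeJA at 0.5 h. Potri.002G218500 stood at 9.62 and 8.63 FPKM with MeJA and 4.25 and 5.54 FPKM without at 0.5 h. The groups did not overlap, and the log2 difference was 0.79 ± 0.13 (SE; limma adjusted p = 0.219). Its neighbour Potri.002G218700 was at 10.97 and 10.6 FPKM with MeJA and 5.56 and 7.39 FPKM without. Its groups did not overlap either (log2 difference 0.67 ± 0.13, SE; limma adjusted p = 0.349). The third, Potri.002G218800, stood at 2.04 and 3.07 FPKM with MeJA and 1.48 and 2.5004 FPKM without, and its groups overlapped. At 1 h all 3 stood slightly lower with MeJA, with log2 differences of -0.21 to -0.13. For Potri.002G218500 the interaction was -0.92 ± 0.18 (SE; limma adjusted p = 0.219).

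Most genes of the set had a single listed isoform. This held for 186 of the 249 genes (74.7%), beside 51.1% of all genes tested. The other 63 genes had 192 isoforms, of which 190 reached 1 FPKM in at least 2 libraries. Each of these 190 had every 1 h library above every 0.5 h library, and 109 of them met a log2 difference of 2. Isoform values sum to the gene values that the rule used, so these counts were largely set by the choice and only describe the set. The share over all isoforms is not given here. In 32 of the 62 genes with 2 or more such isoforms, each isoform met it. In 17 of the 63 genes no isoform did. With 1 FPKM added to each isoform, one at a low level can rise by more than 4 times in FPKM and still miss it. Isoform 4 of Potri.008G010600 stood at 1.14 to 3.60 FPKM at 1 h and 0.087 to 0.167 FPKM at 0.5 h, a log2 difference of 1.28.

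The share of each isoform within its gene was compared over time for 86 isoforms of 27 genes of the set, as log2 odds computed from the share alone. This form was chosen after seeing the data, since odds with an amount added to the FPKM also move with the level of the gene, which the rule used. In limma, 0 of the 86 shares changed at an adjusted p of 0.05, beside 0.0523% of the 24868 isoforms tested. An unadjusted p under 0.05 was met by 13 of the 86 (15.1%), beside 7.47% of all isoforms, and the smallest adjusted p was 0.0579. Isoform 13 of Potri.001G402600, on chromosome 1 and named after its values were seen, made up 8.15% and 7.21% of the gene with MeJA and 8.78% and 8.09% without at 1 h. At 0.5 h it made up 14.6% and 15.5% with MeJA and 14.6% and 11.8% without. All 4 shares of 1 h lay below those of 0.5 h, and the difference in log2 odds was -0.83 ± 0.11 (SE; limma adjusted p = 0.0811). Shares are estimates of the authors' quantification. For MeJA over both times, 0 of the 86 shares passed in limma, beside 0% of all isoforms, and 0 had an unadjusted p under 0.05, beside 5.09%.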

How the data were processed

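The authors deposited 1 table per library with a value per transcript. The deposited values were taken to be FPKM from their form, since no header or label states the unit: they are fractional and linear, with library sums of 549538 to 577002 over the 65535 transcripts listed. The list ends within the identifiers of chromosome 17, and later identifiers were not analysed here. Per the submitters' processing notes, HISAT2 2.1.0 and Bowtie2 2.2.3 were used, in roles those notes leave unstated. The quantifier, genome build, annotation and strand setting were not given in the sources used here. With no read counts used, absolute depth is unknown and no counting interval is given. Libraries had 22555 to 23236 genes at 1 FPKM or more.

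Transcripts were summed to genes and taken as log2(FPKM + 1), and nothing was rescaled. Group means and an additive model of time and treatment were fitted over 24347 genes with limma 3.58.1 in R 4.3.3, moderating variances robustly along an intensity trend. Benjamini-Hochberg adjustment ran over all genes, with calls at 0.05. Isoform shares were fitted as log2 odds from the share alone, with 1% added to the share and to its complement, in genes of at least 5 FPKM in every library and for mean shares of 10% to 90%. The fits were tested on simulated data. Every group has replicates numbered 1 and 2, but no label says that a number marks a shared origin, so no block was used. Deviations of same-numbered libraries, checked in addition, correlated at -0.116 to 0.0328. The genes and lists were chosen with earlier results of these data known. Without gene names, the text names by rule the 2 members of largest change per direction in each contrast. Others named are said to be chosen after their values were seen, except those at the threshold and the 2 not called. Gene families, promoter motifs and markers were planned from gene descriptions and were not analysed here. Alternatives were other pseudocounts, filters, scalings, thresholds and variance priors, a replicate block, and each library left out.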

Additional observations from a re-analysis of the deposited data

How the results depend on the processing

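The number of genes meeting the rule was 515 with a pseudocount of 0.1, 537 at a threshold of 1.5 and 50 at a threshold of 3, as those settings widen or narrow the rule, and 226 to 272 with each library left out. It was 280 after quantile normalization, 327 after median centring and 235 from transcripts, of which 247, 249 and 232 were in the set. The choice in untreated cuttings gave 507 called genes of 546 chosen with a pseudocount of 0.1. The share of all genes called in that fit is not given here, and with the pseudocount of 1 it was 15%. With each library left out, the calls for MeJA were 0 to 1 at 0.5 h, 0 to 6 at 1 h and 0 to 1 for the interaction. The highest came without untreated 0.5 h replicate 2 at 0.5 h and without MeJA 1 h replicate 2 in both other cases, and in each of these fits the spread of the group left with 1 library is taken from the remaining groups. The 6 genes are all among the 14 high in MeJA 1 h replicate 1. Over both times the calls were 0 to 0. Between 247 and 249 genes of the set were called over time, a contrast that the rule used, so this count only describes the set. The share of all genes called over time in these refits is not given here. Genes of the set with a positive difference, a count added after seeing the data, numbered 157 to 193 at 0.5 h, 60 to 161 at 1 h and 46 to 119 for the interaction. Of all genes tested, 42.9% to 45.2%, 49.6% to 56.9% and 54.3% to 58.8% were positive in the same refits. After median centring, 192, 92 and 68 genes of the set were positive in the same order, beside 50.2%, 44.1% and 46.3% of all genes. After quantile normalization they were 191, 101 and 70, beside 48.6%, 48% and 49.6%. With each library left out, the interaction of Potri.008G106400 ran from -0.12 to 4.61, and the MeJA difference of Potri.007G111800 from -0.74 to 3.98 at 1 h and from -0.22 to 1.66 over both times. The low ends came without MeJA 1 h replicate 1. Of 327 refits of named genes, 320 left both the direction and the call as reported, and many of these left out libraries that a value does not use. Isoform shares gave 0 calls as odds from the share alone. The odds first planned, with 0.5 added to the FPKM, move with the level of the gene and had the sign opposite to the share in 18 of 86 isoforms, so their calls say nothing about shares: 1 as planned, 6 with a minimum of 2 FPKM and 1 to 2 with each library left out. With the replicate block, as reported, 0 genes were called for MeJA at either time, and the block changed no other call by over 1.5 times. All-gene medians moved by under 0.1 in the MeJA contrasts under every scaling run. The absence of counts leaves the limits set by depth unmeasured.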

Other observations

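The MeJA difference at 0.5 h was also described in classes of genes by their change over time, a division made after seeing the data in which every class shares the same libraries. Its median log2 value was 0.17 in the genes that were higher by 2 or more at 1 h, and 0.05 in the 970 genes that were higher by 1 to 2. It was -0.01 in the 7441 genes higher by under 1 and -0.04 in the 14354 genes lower by under 1. In the 1234 genes lower by 1 to 2 it was -0.14, and in the 99 genes lower by 2 or more -0.20. The share of genes higher with MeJA at 0.5 h was 75.5%, 60.9%, 46.5%, 40.7%, 27.1% and 29.3% in the same order. At 1 h the medians were -0.06, -0.05, -0.01, 0.03, 0.09 and 0.09. No cause was tested.

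By chromosome, the set took between 0.499% of the genes tested on chromosome 17, which is listed in part, and 1.7% on chromosome 4. Chromosome 11 had 17 genes of the set among 1014 tested. Of the 14 genes high in MeJA 1 h replicate 1, 7 lay within 5 identifier steps of another gene of the set. The same held for 25.3% of the whole set and 6.4% of all genes tested. The difference was not tested.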
